A study of Rattus norvegicus with 4 samples.

Results

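The genes described here encode the proteins of the mitochondrial ribosome, and their transcripts were measured by RNA sequencing in the immortalised rat hepatic stellate line HSC-T6. They were chosen by name, as protein-coding entries of the count table whose symbol is Mrpl (large subunit) or Mrps (small subunit) followed by a number and at most 1 letter. This gave 76 genes of the 32883 in the table, 45 Mrpl and 31 Mrps. There were 2 libraries of cells treated with GRK1, ginsenoside RK1 by the series title (a ginseng saponin formed on heating), and 2 libraries of untreated cells. Both groups are of the same line, with no genotype difference given, and the labels state no dose, duration or vehicle. No label says whether a group's libraries are separate cultures, so the p-values reflect the spread of these 4 libraries alone, possibly a technical one.

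The mitochondrial ribosome is built from proteins encoded in the nucleus and imported into the organelle, and from RNAs transcribed from the mitochondrial chromosome. It translates the few mitochondrially encoded subunits of the respiratory chain and ATP synthase, and it sits at the inner membrane while doing so. Some of its proteins descend from bacterial ribosomal proteins, and others are particular to mitochondria. The small subunit decodes the mRNA, while the large subunit joins amino acids and carries the peptide exit tunnel, the central protuberance and the stalk that recruits translation factors.

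Total counts per library were 18008586 and 18125005 with GRK1 and 20430930 and 18175053 in untreated cells. At this depth 3 counts correspond to 0.148 to 0.167 CPM (the count relative to the scaled library total), a floor that covers counting error only. Of the 10 stellate and myofibroblast markers, 8 reached 1 CPM, and their summed level was 16348 and 16314 CPM with GRK1 against 24662 and 23561 CPM in untreated cells. Col1a1, Col3a1, Sparc and Timp1, all lower with GRK1, made up most of that sum. Pdgfrb was also lower with GRK1 (25.5 and 28.5 CPM, against 30.3 and 36.7 CPM in untreated cells). So was Acta2, which was low in both groups (0.891 and 0.329 CPM with GRK1, against 3.60 and 3.08 CPM in untreated cells). Vim was nearly level (1235 and 1176 CPM with GRK1 and 1273 and 1279 CPM in untreated cells). Des was higher with GRK1 (7.46 and 6.64 CPM, against 5.86 and 5.06 CPM in untreated cells). Lrat, an enzyme of retinoid storage that defines quiescent stellate cells, had 0 counts in every library. The summed markers of hepatocytes (5 of 5 found) ranged from 0.223 to 0.329 CPM with GRK1 and from 0.197 to 0.330 CPM in untreated cells, and those of macrophages (3 of 5 at 0) from 1.37 to 1.78 CPM with GRK1 and from 1.13 to 1.43 CPM in untreated cells. Endothelial markers (4 of 5 found) summed to at most 0.988 CPM. The 5 cholangiocyte markers summed to 2.95 and 2.74 CPM with GRK1 and 7.49 and 9.18 CPM in untreated cells. Only Sox9 passed 1 CPM, and it made up most of that sum (2.45 and 2.36 CPM with GRK1 and 7.24 and 8.85 CPM in untreated cells). The part of these marker differences in the results was not tested.

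Transcripts for the mitochondrial ribosome differed little between the groups. Of the 76 genes, 73 were abundant enough to be tested, and 4 of these rose with GRK1 while 7 fell at a Benjamini-Hochberg adjusted p under 0.05 in edgeR's quasi-likelihood test. Over all 12316 tested genes 22.0% were called, 11.5% higher and 10.5% lower, so the called share of 15.1% among the mitochondrial ribosomal protein genes was below that background. The log2 fold changes of the called genes lay between -0.34 and 0.55. The median over the 73 genes was -0.09, against 0.00 over all tested genes, and 50 of the 73 estimates (68.5%) were negative, against 49.7% of all tested genes. In 37 of the 73 (50.7%) both GRK1 libraries lay below both untreated libraries, against 30.9% of all tested genes. The reverse order was seen in 8, against 32.1% of all tested genes. No test was made of these shares, since the genes are not replicates. At an unadjusted p under 0.05 there were 23 of the 73 (31.5%), below the 36.0% of all tested genes (4430 of 12316). CPM are shares of each library, so a fall of these transcripts and a rise of other RNA cannot be told apart. Counts pooled over cells also do not separate fewer cells with these transcripts from less RNA per cell.

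The number of calls depended on the analysis. DESeq2 called 3 higher and 1 lower, and leaving out 1 library gave 2 to 5 higher and 1 to 4 lower (without untreated replicate 1, 2 and 2; without untreated replicate 2, 2 and 1; without GRK1 replicate 1, 2 and 3; without GRK1 replicate 2, 5 and 4, with Mrpl53 among the 5). Only Mrps6 and Mrpl17 were called in all 13 refits with another tool, scaling, filter or library set.

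**Figure D1:**
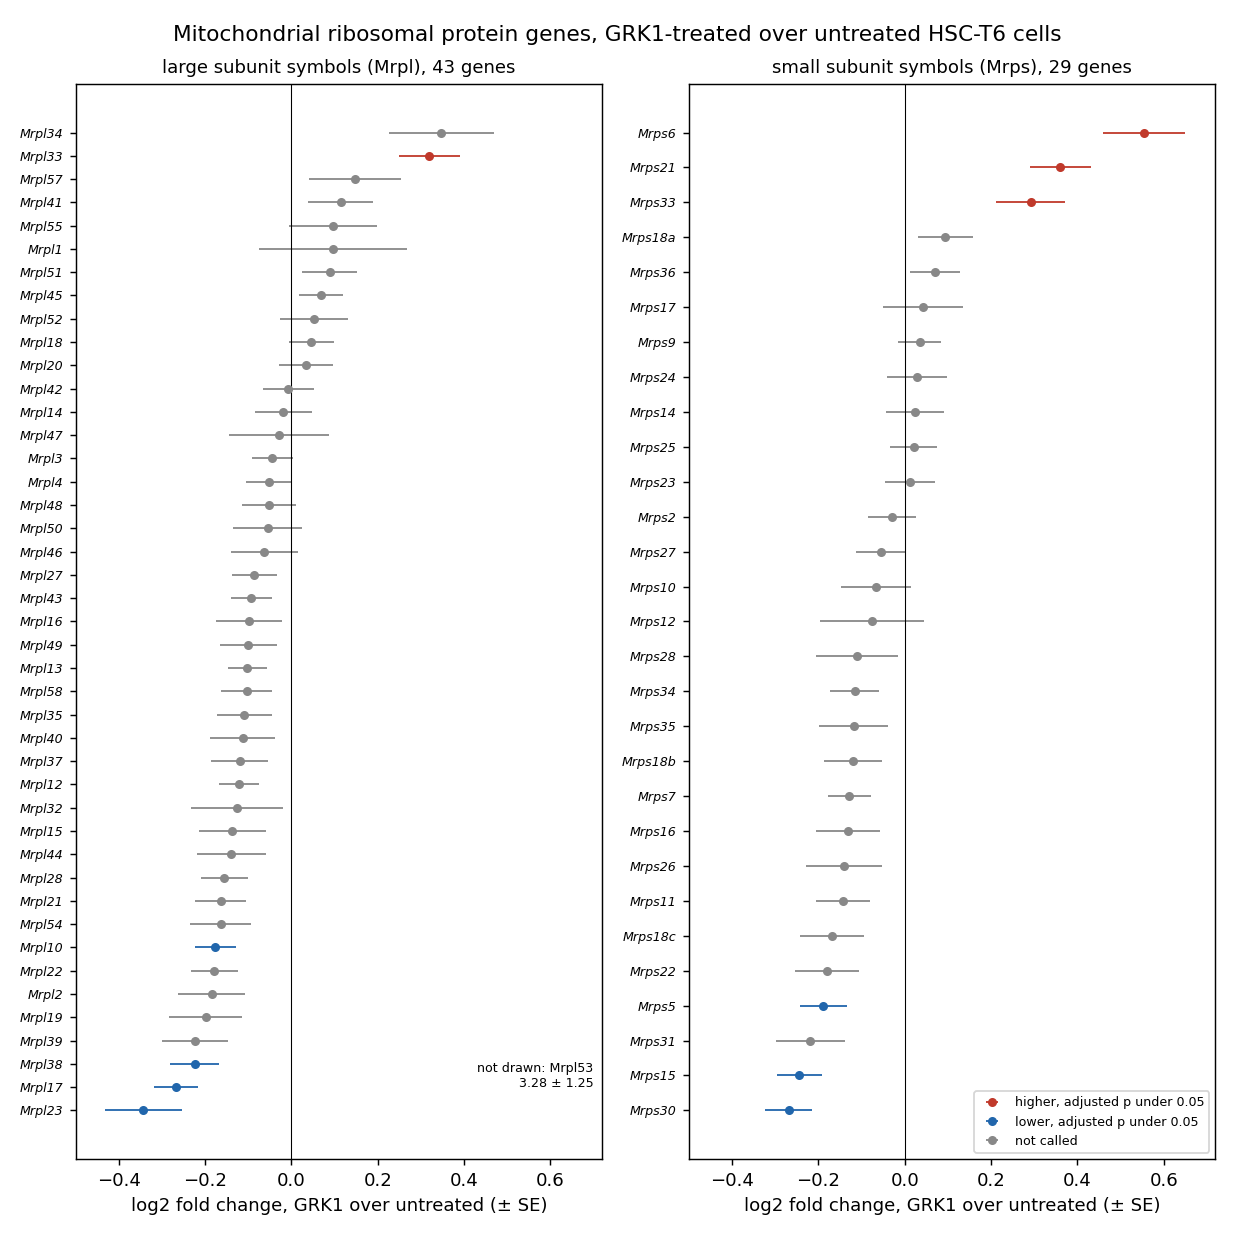
Log2 fold change of GRK1 over untreated (horizontal axis, points with SE) for each tested gene, with Mrpl genes in the left panel and Mrps genes in the right, ordered from the highest to the lowest. Most points lie a little below 0, 4 called genes (red) lie above it and 7 (blue) below it, and Mrpl53 at 3.28 is left off the axis.

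Levels of these transcripts were spread over a wide range. The median over the 44 tested Mrpl genes was 36.2 CPM and over the 29 tested Mrps genes 36.4 CPM. The most abundant were Mrpl45, whose protein tethers the ribosome to the inner membrane at the tunnel exit, and Mrpl13, a core protein with a bacterial homologue. Mrpl45 had 190 and 178 CPM with GRK1 and 172 and 179 CPM in untreated cells, and it was not called (log2 fold change 0.07 ± 0.05 SE, adjusted p = 0.38). Mrpl13 had 164 and 157 CPM with GRK1 and 170 and 175 CPM in untreated cells, and its groups did not overlap, but it did not pass either (-0.10 ± 0.05, adjusted p = 0.16). Among Mrps genes the highest were Mrps7 (83.9 ± 3.3 CPM with GRK1 and 91.7 ± 2.3 CPM in untreated cells, SD, n = 2 each), Mrps9 (53.9 ± 1.5 CPM with GRK1 and 52.7 ± 0.92 CPM in untreated cells) and Mrps23 (46.9 ± 2.5 CPM with GRK1 and 46.5 ± 1.2 CPM in untreated cells). None of these 3 was called (adjusted p = 0.11, 0.67 and 0.90 by edgeR), and the sign of Mrps23 turned negative under upper quartile scaling and without untreated replicate 1 or GRK1 replicate 1. Per kilobase of exon the tested genes ran from 5.13 CPM per kb for Mrpl1 to 247 CPM per kb for Mrpl33, whose listed exon length is 198 bases. The least abundant tested genes were Mrpl53 and Mrpl1 (5.12 and 6.64 CPM with GRK1 and 5.67 and 5.33 CPM in untreated cells) among Mrpl, and Mrps28 (12.8 ± 0.10 CPM with GRK1 and 13.8 ± 0.59 CPM in untreated cells) and Mrps10 among Mrps, and none of these was called.

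Among the genes that rose, Mrps6 stood out. Mrps6 encodes a small subunit protein with a bacterial homologue and lies on chromosome 11 of Rnor_6.0 at 32211115 to 32263899, plus strand. It had 30.2 and 28.6 CPM with GRK1 and 18.4 and 21.7 CPM in untreated cells, so both treated libraries were above both untreated ones. That is a 1.47-fold difference (log2 0.55 ± 0.09, adjusted p = 0.0065). Slc5a3, a myo-inositol transporter gene that in humans shares a promoter and first exon with MRPS6, lies inside the Mrps6 span in the RefSeq annotation of GRCr8. It is not among the symbols of the count table, and whether its transcripts add to the Mrps6 count was not tested.

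The other 3 genes that rose had smaller fold changes, and lie on chromosome 2 (Mrps21, 197974761 to 197982385), chromosome 6 (Mrpl33, 26130488 to 26138414) and chromosome 4 (Mrps33, 67607273 to 67610710) of Rnor_6.0. Mrps21, a small subunit protein with a bacterial homologue, had 49.5 and 44.1 CPM with GRK1 and 37.4 and 35.5 CPM in untreated cells (log2 fold change 0.36 ± 0.07, adjusted p = 0.011). It was called except without untreated replicate 2 (adjusted p = 0.069). Mrpl33, a small protein of the large subunit with a bacterial homologue, had 57.9 and 50.9 CPM with GRK1 and 42.9 and 44.2 CPM in untreated cells (0.32 ± 0.07, adjusted p = 0.017). Mrps33, a mitochondria-specific protein of the small subunit, had 38.8 and 35.7 CPM with GRK1 and 28.5 and 32.4 CPM in untreated cells (0.29 ± 0.08, adjusted p = 0.040). In each of these genes the groups were separate, which selection by p-value favours, so it adds no support. Both GRK1 libraries lay above both untreated ones in 32.1% of all tested genes. Mrps33 was the only one of the 4 that DESeq2 did not call (adjusted p = 0.14). Upper quartile scaling also ended the call of Mrps33. Leaving out any 1 library except GRK1 replicate 2 ended the call of Mrpl33, and leaving out untreated replicate 1 or GRK1 replicate 1 did so for Mrps33.

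Among the genes that fell, Mrpl17 had the smallest adjusted p. Its protein, which has a bacterial homologue, lies at the peptide exit of the large subunit, and the gene lies on chromosome 1 of Rnor_6.0 at 170652294 to 170653920, minus strand. It had 73.0 and 76.3 CPM with GRK1 and 87.8 and 92.0 CPM in untreated cells, without overlap (log2 fold change -0.27 ± 0.05, adjusted p = 0.0097). Mrpl23, a further protein at the exit, had 23.9 and 22.6 CPM with GRK1 and 27.4 and 31.7 CPM in untreated cells (-0.34 ± 0.09, adjusted p = 0.031). This was the lowest estimate of the 73. The list for the peptide exit held 6 genes, and 5 were matched by symbol and tested. Mrpl17 and Mrpl23 fell among these 5, where 10.5% of all tested genes fell. Mrpl22 lay just outside the threshold (51.3 and 48.7 CPM with GRK1 and 55.2 and 58.1 CPM in untreated cells, -0.18 ± 0.05, adjusted p = 0.055). Mrpl45 and Mrpl47 were not called. The listed gene left unmatched, written mrpl24 in lower case, was not called either (-0.02 ± 0.07, adjusted p = 0.85).

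Mrps30 had 32.8 and 33.1 CPM with GRK1 and 39.6 and 40.0 CPM in untreated cells (-0.27 ± 0.06, adjusted p = 0.013), with little spread within either group. Despite its symbol, its protein is part of the large subunit in human and pig ribosome structures, as is that of Mrps18a. Mrps15, a small subunit protein with a bacterial homologue, had 36.8 and 36.6 CPM with GRK1 and 43.9 and 43.1 CPM in untreated cells (-0.24 ± 0.05, adjusted p = 0.016). Mrpl38, a mitochondria-specific protein of the central protuberance, had 39.6 and 38.5 CPM with GRK1 and 47.0 and 44.1 CPM in untreated cells (-0.22 ± 0.06, adjusted p = 0.030). It was the only one of 7 central protuberance genes to be called (14.3%, against 22.0% of all tested genes). The stalk base gene Mrpl10 had 90.1 and 94.6 CPM with GRK1 and 104 and 105 CPM in untreated cells (-0.18 ± 0.05, adjusted p = 0.037). Mrpl12, the stalk protein that contacts translation factors in bacteria, had an estimate of -0.12 ± 0.05 and did not pass (adjusted p = 0.11).

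Mrps5, near the mRNA entry in bacteria, had 35.4 and 36.7 CPM with GRK1 and 40.8 and 41.3 CPM in untreated cells (-0.19 ± 0.05) and lay just inside the threshold (adjusted p = 0.047). On Rnor_6.0 the other genes that fell lie on chromosome 1 (Mrpl23, 215701544 to 215709313), chromosome 2 (Mrps30, 51042546 to 51049449) and chromosome 3 (Mrps5, 120165913 to 120182536). Mrps15 lies on chromosome 5 (144054452 to 144065045), and Mrpl38 (104682374 to 104689178) and Mrpl10 (84976377 to 84984780) lie on chromosome 10. In all 7 genes that fell, both GRK1 libraries were below both untreated ones. Selection by p-value favours this, so it adds no support, and 30.9% of all tested genes had this order. DESeq2 called Mrpl17 of these 7 and gave the other 6 adjusted p-values of 0.088 to 0.31. Mrpl38 and Mrps5 were called in none of the 4 fits that left out a library. The call of Mrps5 was made in 5 of 13 refits, and was also lost under limma-voom (adjusted p = 0.059), with library totals only (0.057) and with no filter on low counts (0.065). Mrpl23 was called without untreated replicate 1 and Mrpl10 without GRK1 replicate 2, and neither in the other 3 leave-outs. Mrps30 and Mrps15 were called without either GRK1 library, and not without untreated replicate 1 or 2.

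**Figure D2:**
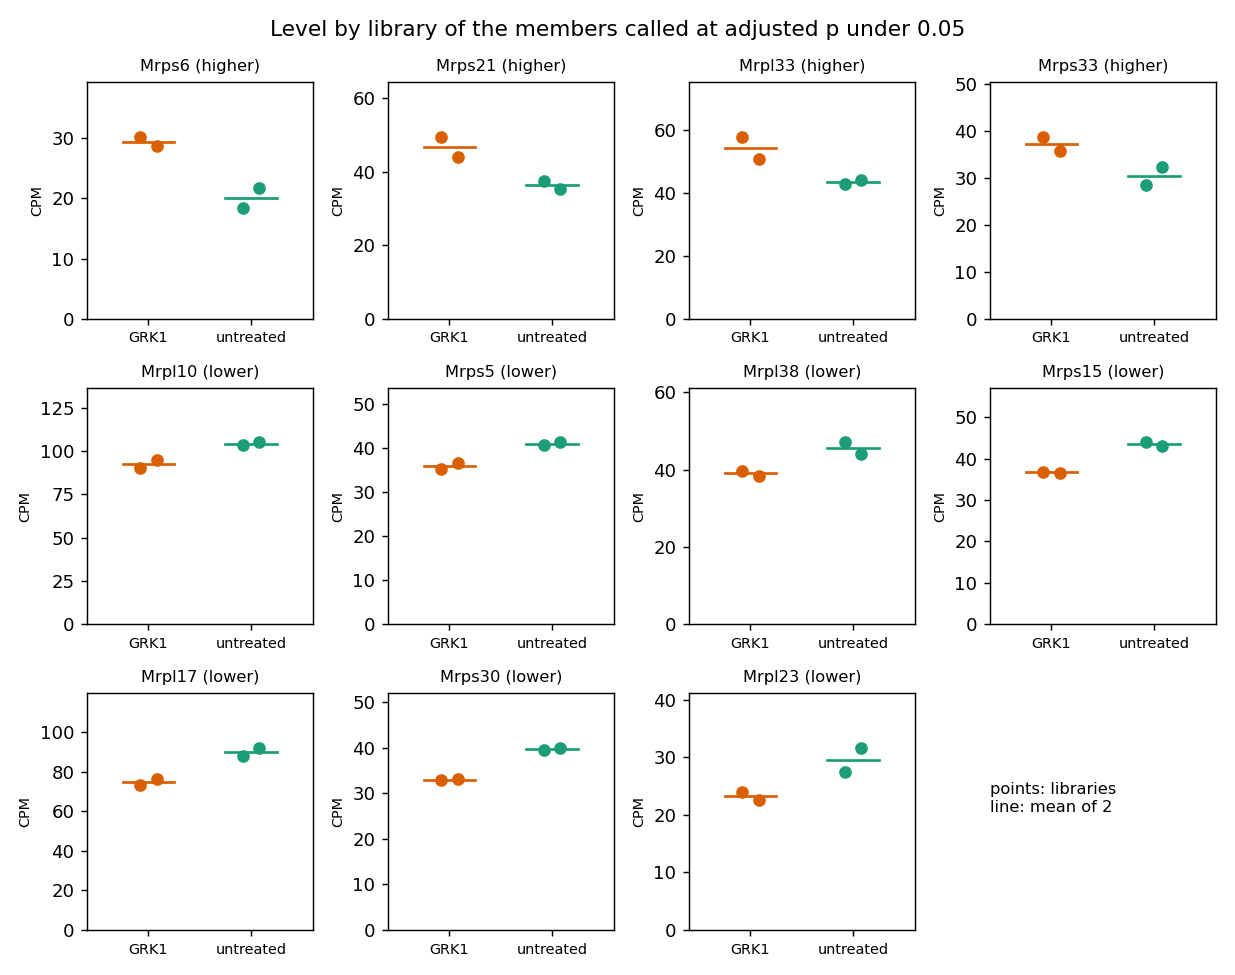
Level in CPM (vertical axes from 0) of the 11 called genes in each library, GRK1 at the left and untreated at the right of each panel, with points for libraries and a line for the mean of 2. In each panel the 2 groups are separate, which the selection of called genes favours. The largest fold difference is in Mrps6 (30.2 and 28.6 CPM with GRK1 against 18.4 and 21.7 CPM in untreated cells).

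Promoter sequences from RefSeq (GRCr8, 250 bases before to 50 after the start) matched 59 of the 75 symbols, in 61 windows. They were searched on both strands for the exact letters of motifs of factors known for nuclear genes of mitochondrial proteins. The YY1 motif AAGATGGC was in 15 of the 61 windows (24.6%), against 3.17% of all 33469 promoters and 3.68% of the 21842 of protein-coding genes. The GABP motif CCGGAAGT was in 8 (13.1%, against 3.81% of all), the NRF1 motif GCGCATGCG in 5 (8.20%, against 1.52%) and the E-box CACGTG in 5 (8.20%, against 6.42%). Among promoters of protein-coding genes these 3 shares were 4.78%, 1.92% and 7.01%. At least 1 of the 4 was in 26 of the 61 windows (42.6%), against 13.6% of all promoters and 15.7% of those of protein-coding genes. By call it was in 22 of 49 windows of uncalled genes, in 2 of 6 of genes that fell and in 1 of 5 of genes that rose. The window of the untested Mrpl36 also held a match. The 3 windows of called genes with a match are shown, since they are those of the steadiest calls, Mrpl17 and Mrps6, and of Mrps30. Capitals mark the matches, which are descriptions of letters and not of binding.

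The Mrpl17 window is chr1:169575650-169575949 on the minus strand of GRCr8, with the NRF1 motif starting at -55 and, on the opposite strand and overlapping it, at -54, and again at -17. The Mrps30 window is chr2:52195855-52196154 on the minus strand, with the YY1 motif at 19 bases after the start. The Mrps6 window is chr11:44778417-44778716 on the plus strand, with the YY1 motif at -3.
Mrpl17: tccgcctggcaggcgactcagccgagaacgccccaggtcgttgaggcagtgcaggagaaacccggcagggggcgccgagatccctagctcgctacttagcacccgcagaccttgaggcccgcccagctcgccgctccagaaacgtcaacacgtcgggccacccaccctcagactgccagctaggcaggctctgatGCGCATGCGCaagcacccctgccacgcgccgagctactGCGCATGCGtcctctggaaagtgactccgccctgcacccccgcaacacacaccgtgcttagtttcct
Mrps30: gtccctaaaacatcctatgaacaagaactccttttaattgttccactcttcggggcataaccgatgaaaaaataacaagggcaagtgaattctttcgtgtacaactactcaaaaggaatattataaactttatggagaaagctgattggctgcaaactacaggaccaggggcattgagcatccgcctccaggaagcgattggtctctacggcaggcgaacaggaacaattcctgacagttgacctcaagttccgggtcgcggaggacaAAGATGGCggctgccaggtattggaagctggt
Mrps6: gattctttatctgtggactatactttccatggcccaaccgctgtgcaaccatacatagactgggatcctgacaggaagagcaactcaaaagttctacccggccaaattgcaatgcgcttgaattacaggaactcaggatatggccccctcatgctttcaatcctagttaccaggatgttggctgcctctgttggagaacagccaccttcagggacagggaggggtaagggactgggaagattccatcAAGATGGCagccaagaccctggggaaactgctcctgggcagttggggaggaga

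The remaining 62 tested genes were not called. Leaving Mrpl53 aside, their log2 fold changes ran from -0.22 for Mrpl39 to 0.35 for Mrpl34, with 43 negative and 18 positive. Mrpl39, a mitochondria-specific large subunit protein, averaged 19.2 ± 0.43 CPM with GRK1 and 22.5 ± 0.49 CPM in untreated cells (-0.22 ± 0.08, adjusted p = 0.079). For 45 of these 61 the 95% interval of the fold change stayed within 1.25-fold in either direction, and for 60 of 61 within 1.5-fold. The exception was Mrpl34, a large subunit protein with a bacterial homologue, chosen after its values were seen. It had 9.80 and 8.89 CPM with GRK1 and 7.54 and 7.15 CPM in untreated cells (0.35 ± 0.12, interval 0.06 to 0.63, adjusted p = 0.084). Mrps18a had 34.0 ± 0.70 CPM with GRK1 and 31.9 ± 1.5 CPM in untreated cells and Mrps36, whose protein is now placed in the 2-oxoglutarate dehydrogenase complex, 38.4 ± 0.20 CPM with GRK1 and 36.6 ± 1.5 CPM in untreated cells, and neither was called (adjusted p = 0.34 and 0.43).

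Large and small subunit genes had close medians. Of 44 tested Mrpl genes 1 rose and 4 fell (median log2 fold change -0.10), and of 29 tested Mrps genes 3 rose and 3 fell (median -0.08). For Mrpl these were 2.27% higher and 9.09% lower, and for Mrps 10.3% in each direction. Over all tested genes 11.5% were higher and 10.5% lower. The difference of these medians was -0.02, and it was 0.03 without untreated replicate 2 and 0.01 without GRK1 replicate 1. Summed over all Mrpl genes the level was 1926 and 1885 CPM with GRK1 and 1964 and 2027 CPM in untreated cells. Over all Mrps genes it was 1029 and 1004 CPM with GRK1 and 1030 and 1056 CPM in untreated cells. The GRK1 sums were the lower ones in both subunits, by 4.51% and 2.48% on average, and the first GRK1 and first untreated sums of the small subunit were nearly equal. The ratio of the large to the small sum was 1.87 and 1.88 with GRK1 and 1.91 and 1.92 in untreated cells. Moving Mrps30 and Mrps18a to the large subunit and leaving out Mrps36 gave 1 rise and 5 falls among 46 large and 3 rises and 2 falls among 26 small subunit genes.

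Grouped by ancestry of the proteins, the medians lay between -0.12 and -0.08. Of the tested genes for large subunit proteins with a bacterial homologue (26), 1 rose and 3 fell (median -0.10), and of the 20 without one, 2 fell (median -0.08). For the small subunit, 2 of 17 with a homologue rose and 2 fell (median -0.08), and of 9 without one Mrps33 rose (median -0.12). These lists place Mrps30 and Mrps18a in the large subunit. The first list also names Mrpl9, Mrpl11 and Mrpl24, which are written in lower case in the counts and are not among the 26. Of these, mrpl9 fell and the others were not called, with values given below.

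The 4 genes that rose had short listed exons, between 198 and 699 bases. Of 12 tested genes with an exon length of up to 700 bases, 4 rose and 1 fell, and of the 61 longer ones 6 fell. Among all 1007 tested genes of up to 700 bases, 7.85% were higher and 7.05% lower, and their median log2 fold change was -0.03. The length ranges were chosen after the values were seen, and Mrps6 at 699 bases lies just inside the limit. As a description, Spearman's rho of exon length with the log2 fold change was -0.17 over the 73 genes. It was -0.14 without Mrpl53 and 0.04 over all tested genes.

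**Figure D3:**
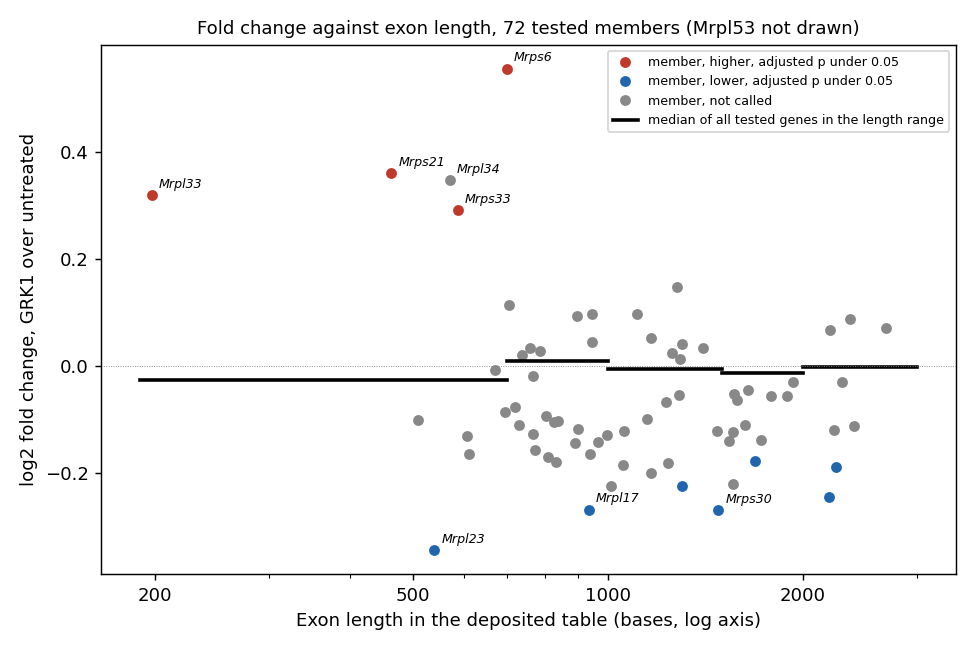
Log2 fold change of GRK1 over untreated (vertical axis) against exon length in bases (horizontal log axis) for 72 tested genes, with black lines for the median of all tested genes in each length range. The 4 red genes that rose lie at 198 to 699 bases, and the all-gene medians stay between -0.03 and 0.01.

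Some entries gave no usable comparison. Mrpl53, a mitochondria-specific protein grouped here with the stalk base, had 188 and 7 counts with GRK1 and 5 and 16 counts in untreated cells. Its log2 fold change of 3.28 rested on the first GRK1 library and was not called (adjusted p = 0.11), and without that library it was -0.52. A second entry described as ribosomal protein L53 of mitochondria, on the same chromosome, had 0 counts in every library, and near-identical copies can divide or drop reads, so the values of Mrpl53 are uncertain. Mrpl36 had 0 and 2 counts with GRK1 and 1 and 0 counts in untreated cells and was not tested, and a second L36 entry had 0 counts. Mrps21l, which stands on 2 identifiers of chromosome 18, had 0 counts throughout, and a count of 0 allows at most 0.148 to 0.167 CPM, depending on the library. A further 11 genes overlap another listed gene, each on the opposite strand (Mrps28 also a snoRNA on its own strand), and whether counting used strand was not given in the sources used here. Where it did not, reads of such a pair cannot be told apart. The 11 called genes lie outside these overlaps.

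The choice by symbol leaves out 3 genes written mrpl9, mrpl11 and mrpl24 in the table, which were looked at after the fact. Of these mrpl9, for a core protein of the large subunit, fell (33.0 and 35.6 CPM with GRK1 and 40.1 and 43.3 CPM in untreated cells, -0.28 ± 0.07, adjusted p = 0.023). The other two were not called (adjusted p = 0.26 and 0.85). Of 5 further ribosomal proteins without an Mrp symbol, Dap3, a GTP-binding protein of the small subunit, fell. It had 60.6 and 60.6 CPM with GRK1 and 71.1 and 71.1 CPM in untreated cells (-0.23 ± 0.05, adjusted p = 0.011, and 0.061 by DESeq2). Ptcd3, an RNA-binding protein of the same subunit, lay just outside the threshold (-0.15 ± 0.05, adjusted p = 0.051), and all 5 estimates were negative (median -0.15).

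The list of regulators of nuclear genes for mitochondria, a selection from general knowledge, held 14 genes, of which 12 were tested. Of these 12, 0 were called by edgeR, DESeq2 or limma-voom, with 2 at an unadjusted p under 0.05 in edgeR and in limma-voom and 0 in DESeq2, where 36.0% of all tested genes were under it in edgeR. Gabpa, the DNA-binding subunit of GABP, had 138 ± 0.90 CPM with GRK1 and 138 ± 2.4 CPM in untreated cells and was not called. Yy1 had 69.8 ± 0.58 CPM with GRK1 and 69.9 ± 1.7 CPM in untreated cells, and Nrf1 had 44.6 ± 0.84 CPM with GRK1 and 45.5 ± 0.49 CPM in untreated cells. These 3 were given because their motifs were searched, and no values are given for factors of the E-box, which was searched as well. Over the list 10 estimates were negative and 2 positive, from -0.31 to 0.15 with a median of -0.05. The negative share was 83.3%, against 49.7% of all tested genes, and it was not tested. Of 16 listed mitochondrial translation factors 14 were tested and 0 were called by the same tools, again with 2 at an unadjusted p under 0.05 in edgeR (14.3%, below the same 36.0%) and in limma-voom and 0 in DESeq2, and the median was 0.03.

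Other steps of mitochondrial gene expression gave 1 call in ribosome assembly and 3 in transcription and RNA stability. Both called shares (1 of 24 and 3 of 15 tested genes) were below the 22.0% called among all tested genes. Among 24 tested genes of ribosome assembly and rRNA modification, Mpv17l2, an inner membrane protein needed for ribosome assembly, rose (14.0 and 15.9 CPM with GRK1 and 10.7 and 11.8 CPM in untreated cells, 0.42 ± 0.11, adjusted p = 0.035, and 0.16 by DESeq2). Among 15 genes of mitochondrial transcription and RNA stability, Pnpt1 and Elac2 fell and Hsd17b10 rose. Pnpt1, which degrades mitochondrial RNA, averaged 132 ± 14 CPM with GRK1 and 187 ± 8.5 CPM in untreated cells (-0.50 ± 0.07, adjusted p = 0.0037). Elac2, which cuts the 3′ ends of tRNA precursors, had 39.9 and 39.9 CPM with GRK1 and 53.4 and 49.1 CPM in untreated cells (-0.36 ± 0.06, adjusted p = 0.0054). Hsd17b10, part of mitochondrial RNase P, averaged 81.3 ± 2.7 CPM with GRK1 and 68.2 ± 1.6 CPM in untreated cells (0.25 ± 0.05, adjusted p = 0.011). Without untreated replicate 1 the calls of Mpv17l2 (adjusted p = 0.11), Hsd17b10 (0.050) and Dap3 (0.054) were lost, as were that of Hsd17b10 without GRK1 replicate 1 (0.053) and that of Mpv17l2 without GRK1 replicate 2 (0.16).

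The mRNAs translated by this ribosome, transcribed from the mitochondrial chromosome, had a positive median. Of 13, 6 rose (46.2%, against 11.5% of all tested genes), and DESeq2 also called 6. The median log2 fold change was 0.26, against 0.00 over all tested genes. This set was not matched to all genes by level, and small folds are easier to call at high levels. Mt-nd5 had 1438 and 1457 CPM with GRK1 and 886 and 944 CPM in untreated cells (0.66 ± 0.04, adjusted p = 1.2e-04), and Mt-nd4l, Mt-cyb and Mt-nd2 rose as well (0.85 ± 0.08, 0.65 ± 0.06 and 0.30 ± 0.03). Mt-nd5, Mt-nd4l and Mt-nd2 encode subunits of complex I and Mt-cyb one of complex III, and Mt-nd4l overlaps its neighbour Mt-nd4, so its value is uncertain. Mt-nd6, also for a complex I subunit and chosen as the only negative estimate, averaged 34.2 ± 2.0 CPM with GRK1 and 36.2 ± 0.14 CPM in untreated cells and was not called (-0.08 ± 0.06, adjusted p = 0.41).

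Cytosolic ribosomal protein genes, which serve translation outside mitochondria, were set beside the mitochondrial ones. Of 85 tested, 33 fell (38.8%) and 1 rose, with a median log2 fold change of -0.14. In the mitochondrial set 7 of 73 fell (9.59%) and 4 rose, with a median of -0.09, and 10.5% of all tested genes fell. The sets were not matched by level, and small folds are easier to call at high levels, so the shares called are not a like comparison. Rpsa, for a small subunit protein, averaged 1324 ± 70 CPM with GRK1 and 1787 ± 88 CPM in untreated cells (-0.43 ± 0.05, adjusted p = 0.0014). Rps2, Rpl14 and Rpl3 fell by 0.34, 0.31 and 0.32 on the log2 scale. The gene that rose was Rpl13a (0.32). Processed pseudogenes can share reads with these genes, which makes their single values uncertain, and the difference between the sets was not tested.

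**Figure D4:**
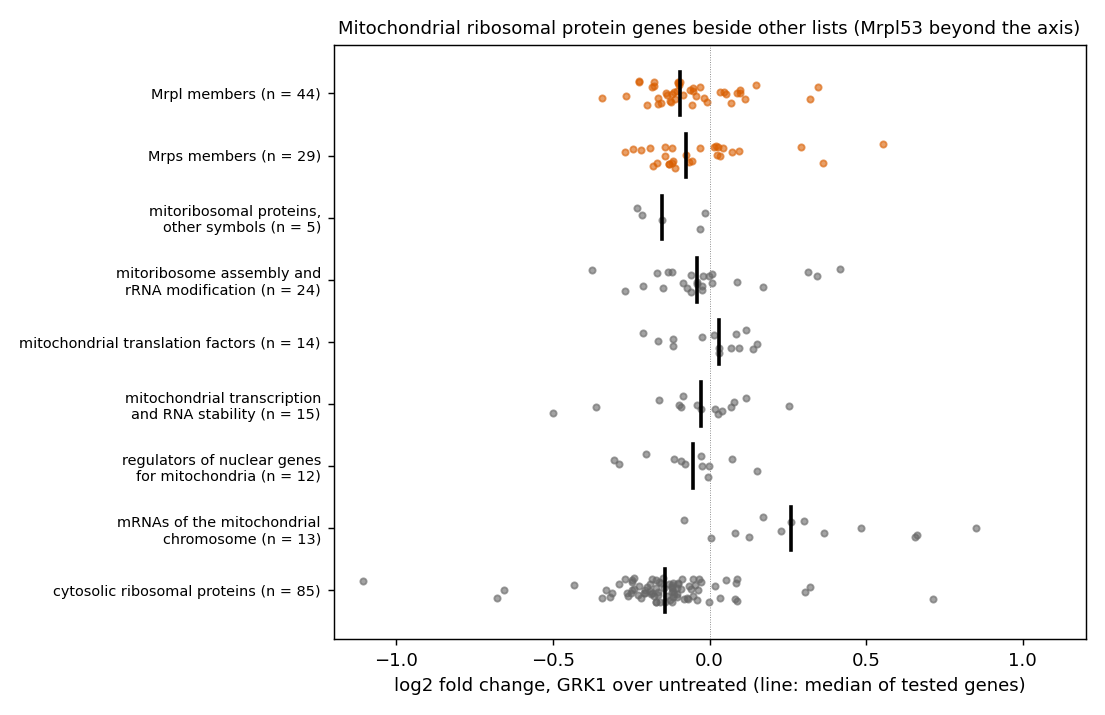
Log2 fold change of GRK1 over untreated (horizontal axis) for the tested genes of each list (points, with vertical jitter for legibility), with a black line at each median and Mrpl53 beyond the axis. The medians of Mrpl and Mrps genes (-0.10 and -0.08) lie between those of cytosolic ribosomal proteins (-0.14) and mRNAs of the mitochondrial chromosome (0.26).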

How the data were processed

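The deposited table, made by the authors, holds raw counts for each Ensembl gene, with symbols, exon lengths and Rnor_6.0 positions, per the file headers. HISAT2 and HTSeq are named in the submitters' processing notes, while versions, strand setting and multi-mapping rule were not given in the sources used here. No normalization had been applied to the deposited counts. Groups follow the treatment label.

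Genes passed edgeR's filterByExpr (minimum count 10, total 15), leaving 12316 of 32883, and were scaled by TMM. The test was edgeR 4.0.16 quasi-likelihood (R 4.3.3), two-sided, group as the only term, 2 residual degrees of freedom, with Benjamini-Hochberg adjustment over all tested genes and a threshold of 0.05. SE is the log2 fold change over the square root of F, and 95% intervals use the t quantile of the fit. CPM use TMM-scaled totals, and ± beside CPM is the SD over 2 libraries. The steps were tested on simulated data. The libraries of a group differed beyond counting noise (chi-square over its degrees of freedom 4.67 with GRK1 and 4.57 in untreated cells).

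The members and lists were chosen with earlier results of these data known. Named genes were all called members (up to 12 a direction), the 3 most and 2 least abundant per subunit, untested members, Mrps30, Mrps18a and Mrps36, the 2 nearest the threshold on each side, and up to 4 called genes of each other list. Mrpl12, Mrpl34, Mrpl47, Ptcd3, Mt-nd6, Gabpa, Yy1 and Nrf1 were named after their values were seen. DESeq2 1.42.0, limma-voom 3.58.1, other scalings and filters, a replicate block and leaving out each library were alternatives, and the 3 lower-case symbols were added after seeing the data.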

Additional observations from a re-analysis of the deposited data

How the results depend on the processing

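The median over these genes stayed negative in all 13 refits, from -0.12 under upper quartile scaling, where the median of all genes was -0.03, to -0.07 without GRK1 replicate 2. The counts of calls depended on the analysis. By DESeq2, 1 member fell (1 Mrpl and 0 Mrps), and over all genes 859 were higher and 853 lower, against 1422 and 1289. At an adjusted p under 0.01, 1 Mrps member rose and 1 Mrpl member fell, with 0 Mrpl higher and 0 Mrps lower, and 665 of all genes were higher and 561 lower. With a fold of at least 1.5 added, 0 members were called in either direction or subunit, while 4 rose and 7 fell by edgeR without it, and 247 of all genes were higher and 334 lower. Leaving out each library in turn gave 2 to 5 members higher (0 to 2 Mrpl, 2 to 3 Mrps) and 1 to 4 lower (1 to 2 Mrpl, 0 to 2 Mrps), with 824 to 1110 of all genes higher and 859 to 936 lower. In those fits the single library left takes its spread from the other group. The large minus small median was -0.035 to 0.028 in these fits and -0.0024 with subunits placed as in the ribosome structure, against -0.02. The sign reversed for Mrpl53 without GRK1 replicate 1 (-0.52, the leave-out range being -0.52 to 4.41). It also reversed for the uncalled Mrps23 under upper quartile scaling (-0.0148), without untreated replicate 1 (-0.0115) and without GRK1 replicate 1 (-0.0407, with 0.0673 at the other end of the range). With the lower-case symbols 8 members fell. The cause of these changes was not tested.

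With the replicate block 4 members rose and 8 fell, and 1676 of all genes were higher and 1538 lower. No label says whether same-numbered libraries are pairs. Their deviations correlated at 0.059 across genes, and with 2 pairs this cannot settle the question. Genes with few counts, such as Mrpl36, could not be tested, and the cause of its low count was not examined. With 2 libraries a group there is a limit to how small a fold can be called.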

Other observations

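Mrpl53 and a neighbouring gene on chromosome 4 each had counts in all 4 libraries and a high count in a single, different one. The neighbour Mogs, a glucosidase gene of the endoplasmic reticulum, had 5 and 176 counts with GRK1 and 5 and 6 in untreated cells, so its high value was in the second GRK1 library and that of Mrpl53 (188) in the first. Ccdc142, on the other side of Mrpl53, had 0 and 2 counts with GRK1 and 1 and 3 in untreated cells. The L1-like entry LOC100359687 had 91 and 37 counts with GRK1 and 99 and 75 in untreated cells and was not called (adjusted p = 0.55), and the L30 entry had 2 to 5 counts in every library. These genes were chosen after their values were seen.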
